A study of Mus musculus with 16 samples.

Results

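Mature osteoblasts and osteocytes were studied in bone marrow stromal cell (BMSC) cultures by single-cell RNA-Seq, as 373 cells of the 15847 that passed the cell filter, out of 17793 barcodes in 15 samples. A cell was kept if it had at least 500 genes and less than 20% mitochondrial unique molecular identifiers (UMIs, the counts of single captured RNA molecules). It was called stromal if *Col1a1*, *Col1a2*, *Sparc*, *Tagln* and *Tpm2* together held at least 25 of every 10000 UMIs. It was called a mature osteoblast or osteocyte if *Ibsp*, *Bglap* and *Bglap2* also held at least 60 of every 10000. The rule left 1098 other stromal cells, which served as the comparison within each sample. It also left 14223 macrophages with a stromal sum below the threshold, which served as the background for osteoblast RNA. The cells were thus chosen by the measured levels of 5 stromal and 3 osteoblast genes, and the levels of these genes are a description and no finding.

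Cells came from 12-week-old male littermates on C57BL/6J and were cultured for 21 days with 10 mM beta-glycerophosphate and 50 μg/ml ascorbic acid. In the study's main cross all 4 genotypes carried floxed *Fgf23* alleles, with loxP sites around the first exon. In that cross, WT was Dmp1+/+ Fgf23 fl/fl without Cre, Fgf23cKO was Dmp1+/+ Fgf23 fl/fl with Dmp1-cre, Dmp1KO was Dmp1-/- Fgf23 fl/fl without Cre, and Dmp1KO Fgf23cKO was Dmp1-/- Fgf23 fl/fl with Dmp1-cre. Other WT and Dmp1KO littermates, with Cre and without floxed alleles, were bred as well, and the labels give only the genotype names. The Cre transgene is driven by the *Dmp1* promoter, which is used mainly in late osteoblasts and osteocytes. Each genotype had 3 cultures tagged with oligonucleotides and 1 sample of untagged cells from the same pool, numbered 4, and 1 Dmp1KO culture was not used here. One droplet reaction was run per genotype, and the effects of the 2 cannot be told apart. Viable cells had been sorted before capture, and total counts ranged from 3560752 UMIs in WT 4 to 72482185 UMIs in Dmp1KO 2.

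Osteoblasts are the bone-forming cells that descend from stromal progenitors, secrete type I collagen, and load it with mineral. As they mature they make bone sialoprotein, encoded by *Ibsp*, and osteocalcin, encoded by *Bglap* and *Bglap2*, and some become osteocytes, the cells embedded in bone that make DMP1, PHEX, MEPE, sclerostin and the phosphate-lowering hormone FGF23. DMP1 is an acidic matrix protein that promotes mineralization, and loss of DMP1 raises FGF23 in bone.

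The osteoblast sum of the chosen cells spread widely. Over the 373 cells the sum had a median of 335.5 and a maximum of 2466 per 10000 UMIs, 295 cells reached 120, and 142 reached 480. Just inside the threshold, 35 cells had sums of 60 to 80, with a median of 68.6. Just outside it, 65 stromal cells had sums of 40 to 60, with a median of 49.3, and 7 further cells had the osteoblast sum without the stromal sum.

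**Figure D1:**
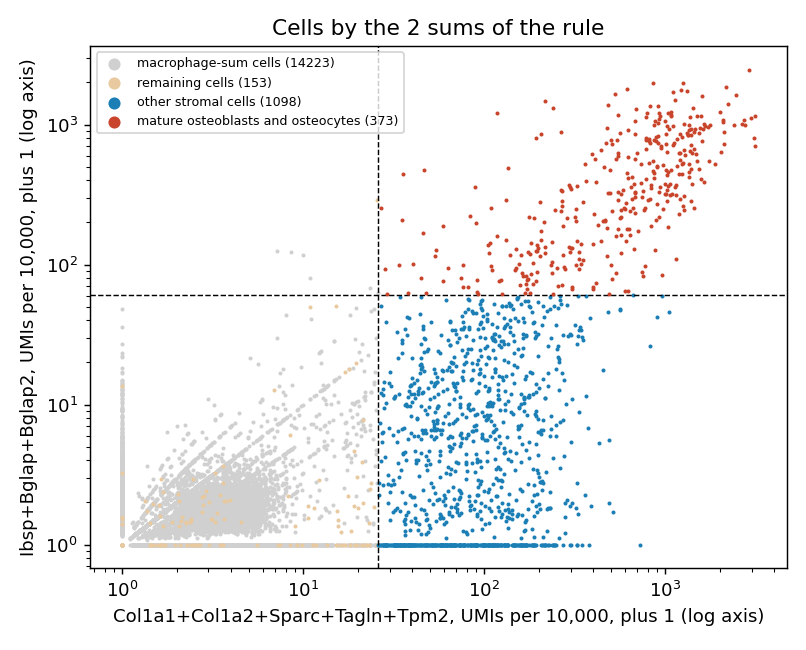
Each point is 1 cell, placed by its stromal sum (x axis) and its osteoblast sum (y axis), both per 10000 UMIs, plus 1, on log axes and colored by cell class, with the thresholds of 25 and 60 as lines. The 373 mature osteoblasts and osteocytes lie above both lines, with no gap between them and the other stromal cells.

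The label was checked on genes that the rule did not use, over the cells of all genotypes together. *Dmp1* was detected in 50.1% of the mature cells, compared with 4.01% of other stromal cells and 1.24% of macrophages. The median depth was 27615 UMIs in the mature cells, 5595.5 in other stromal cells and 18083 in macrophages, so detection was also computed on 1300 randomly drawn UMIs per cell, without the 27 mature cells that had fewer. After thinning, *Dmp1* was detected in 26.6%, 0.979% and 0.0932% of the 3 kinds of cell. *Ifitm5*, which encodes an osteoblast membrane protein, was detected in 50.9%, 2.64% and 1.74% (17.9% of thinned mature cells), *Phex*, which encodes a bone endopeptidase, in 39.4%, 4.19% and 2.20%, and *Mepe* in 16.9%, 0.729% and 0.239%. *Alpl*, which encodes the alkaline phosphatase that frees phosphate for mineral, was detected in 85.3%, 35.2% and 4.49%. The values of *Phex*, *Mepe* and *Alpl*, and those of *Ifitm5* outside the brackets, are at full depth, which differed between the kinds of cell. Late osteocyte genes were nearly absent. *Sost*, which encodes sclerostin, was found in 3 of 373 cells, all Dmp1KO Fgf23cKO, with 13 of its UMIs in sample 4. *Fgf23* was found in 1 of 373 cells (0.268%), compared with 0.0703% of macrophages, and in none after thinning, so its level in the mature cells was not measurable at this depth. The early osteocyte genes *Dmp1*, *Phex* and *Mepe* were thus present, and *Sost* and *Fgf23* were at or near 0. *Ibsp* itself was found in 33.2% of macrophages (3.86% after thinning), and the source of this RNA was not tested.

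Some samples stood apart. The untagged samples WT 4, Dmp1KO 4 and Dmp1KO Fgf23cKO 4 had shallow mature cells, with medians of 2492.5, 2428 and 2725 UMIs, whereas the tagged cultures had medians of 22769.5 to 133848 UMIs. Depth also moved with genotype: the median mature cell had 16363.5 UMIs in WT, 74667 in Fgf23cKO, 40209.5 in Dmp1KO and 87371 in Dmp1KO Fgf23cKO. With each cell thinned to 1300 UMIs, genotype differences in the share of mature cells ranged from -1.88 to 3.74 percentage points among all cells (-1.87 to 3.78 unthinned) and from -21.7 to 21.7 points among stromal cells (-19.9 to 21.4 unthinned), and none of the 10 changed direction. Among stromal cells Fgf23cKO minus WT moved from -3.86 to -8.62 points and Dmp1KO Fgf23cKO minus WT from 1.47 to 0.0369. The part of depth in the differences of single genes was not tested. The composition of the osteoblast sum differed as well. In the Dmp1KO samples *Ibsp* held 91.1%, 91.7% and 93.8% of the UMIs of the 3 osteoblast genes, compared with 49.5% to 85.3% in the other 12 samples. The median of *Bglap* plus *Bglap2* was 0.688, 1.38 and 5.91 per 10000 UMIs in the Dmp1KO samples and 33.6 to 220 in the others. *Bglap*, *Bglap2* and *Bglap3* are near-identical copies, so the split of counts among them is uncertain. No barcode was shared between samples of 1 genotype, and samples of different genotypes shared 0 to 6.

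Macrophage RNA was present in the mature cells. All 12 macrophage markers were detected, with *Lyz2* the most abundant, in 97.3% of mature cells, and none was at 0. Their summed level was 2926, 3557, 4150 and 3753 CPM (UMIs scaled to the same total in every sum, as counts per 10000 UMIs times 100) in WT 1 to 4, and 4348, 3395, 1340.5 and 4926 CPM in Fgf23cKO 1 to 4. It was 1681, 2277 and 2345 CPM in Dmp1KO 2 to 4 and 4981, 2753, 2829 and 7223 CPM in Dmp1KO Fgf23cKO 1 to 4. The median was 3395 CPM, compared with 4418 CPM in other stromal cells, and with 33366 to 45333 CPM in the macrophages themselves. Mature cells with a macrophage sum of at least 25 per 10000 made up 0% (Fgf23cKO 3 and Dmp1KO 2) to 70.0% (Dmp1KO Fgf23cKO 4) of a sample. Leaving out these cells, which left 3 WT and 3 Dmp1KO Fgf23cKO cultures, gave 1493 genes for that genotype comparison and 265 for its interaction with cell class. For genes in the other genotype comparisons the part of macrophage RNA was not tested. None of the 10 genotype differences in the share of mature cells changed direction without these cells. Among stromal cells, Dmp1KO minus WT was -13.7 percentage points without and -19.9 with them, Fgf23cKO minus WT -1.02 and -3.86, and Dmp1KO Fgf23cKO minus WT 4.33 and 1.47. Endothelial, lymphoid, and neutrophil and erythroid markers had medians of 1.49, 0 and 9.84 CPM in the mature cells, with *Cldn5*, *Cd3e*, *Ms4a1* and *S100a9* among those at 0.

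The first comparison asked how many cells met the rule in each genotype. In Dmp1KO they met it mainly by *Ibsp*, with little *Bglap* and *Bglap2*, as given above, so they may not be in the same state. The part of low *Bglap* and *Bglap2* in the shares was not tested. Mature cells made up 2.89%, 0.898% and 2.90% of cells in WT 1 to 3, 5.41%, 2.84% and 1.14% in Fgf23cKO 1 to 3, 0.258% and 0.463% in Dmp1KO 2 and 3, and 2.96%, 4.79% and 4.68% in Dmp1KO Fgf23cKO 1 to 3. The Dmp1KO cultures were the lowest, and did not overlap with those of any other genotype. The means were 2.23% ± 1.15 (SD, n = 3) in WT, 3.13% ± 2.15 (n = 3) in Fgf23cKO, 0.360% ± 0.145 (n = 2) in Dmp1KO and 4.14% ± 1.03 (n = 3) in Dmp1KO Fgf23cKO. In two-sided exact permutation tests, Dmp1KO was lower than WT by 1.87 percentage points (p = 0.2), and Dmp1KO Fgf23cKO was higher than Dmp1KO by 3.78 points (p = 0.2), which is the smallest p that 3 cultures against 2 allow. Dmp1KO Fgf23cKO was higher than WT by 1.91 points (exact p = 0.1, the smallest p for 3 against 3). Fgf23cKO overlapped with WT (exact p = 0.6). None of the 5 comparisons passed the threshold, and the smallest adjusted p was 0.333. These designs could not reach 0.05.

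The share among stromal cells leaves out macrophages below the stromal threshold, but not stromal cells that carried macrophage RNA. Of the other stromal cells, 16.0% (Fgf23cKO 1) to 44.9% (WT 3) reached the macrophage sum given above in the tagged cultures. In the untagged samples it was up to 84.1% (Dmp1KO Fgf23cKO 4). The part of these other stromal cells in the share was not tested. The share of mature cells was 34.1%, 27.4% and 35.5% in WT 1 to 3 and 47.9%, 26.2% and 11.3% in Fgf23cKO 1 to 3. It was 11.1% and 13.8% in Dmp1KO 2 and 3, and 33.8%, 32.7% and 34.9% in Dmp1KO Fgf23cKO 1 to 3. The mean was 12.5% ± 1.90 (SD, n = 2) in Dmp1KO, compared with 32.3% ± 4.32 (n = 3) in WT, 28.5% ± 18.4 (n = 3) in Fgf23cKO and 33.8% ± 1.10 (n = 3) in Dmp1KO Fgf23cKO. The difference from WT was -19.9 points for Dmp1KO (exact permutation p = 0.2, the smallest possible, and adjusted p = 0.5 over 5 comparisons). For Dmp1KO Fgf23cKO it was 1.47 points (exact p = 0.9), and the groups overlapped. The untagged sample WT 4 lay above the WT cultures, at 50.4% of stromal cells. Of all its cells, 13.75% were mature (95% exact binomial interval 10.8% to 17.2%, for counting error only), compared with 0.898% to 2.90% in the WT cultures, and of all cells of Dmp1KO 4 1.25% were (0.573% to 2.36%). Counting the untagged samples turned the direction of the difference from WT for Dmp1KO Fgf23cKO on both measures, and for Fgf23cKO in the share of all cells but not of stromal cells.

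**Figure D2:**
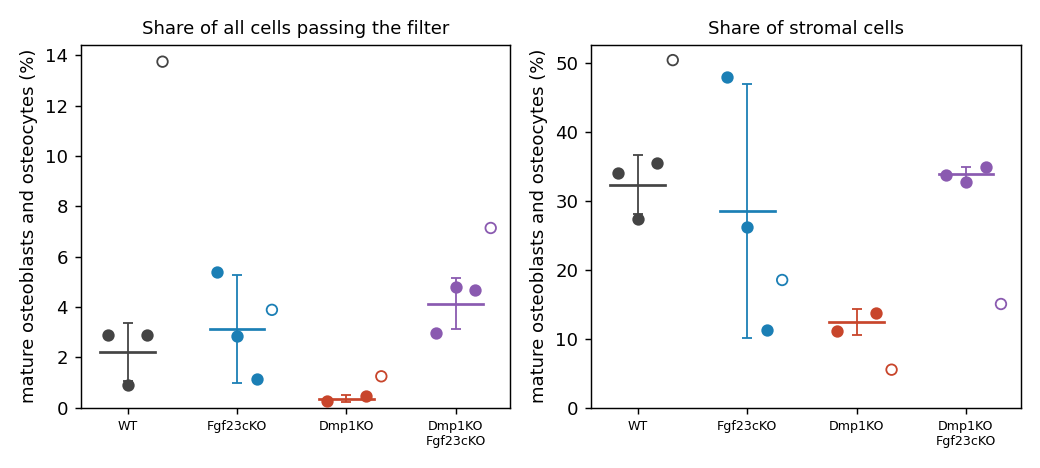
Share of mature osteoblasts and osteocytes in percent of cells (left) and of stromal cells (right) by genotype, with tagged cultures as filled points, untagged samples as open points, and the mean ± SD of the tagged cultures as bars. The 2 Dmp1KO cultures lie at 0.258% and 0.463% of cells, below every other tagged culture.

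The genes that mark these cells lie partly in clusters, beside others such as *Dspp*, which was at 0 in the mature cells. In the GENCODE M21 annotation of GRCm38, *Dspp* (chr5:104170712-104180127), *Dmp1* (chr5:104202613-104214102), *Ibsp* (chr5:104299171-104311469), *Mepe* (chr5:104325329-104338611) and *Spp1* (chr5:104435118-104441050) lie side by side on the plus strand. They encode the SIBLING proteins, a family of acidic phosphoproteins of mineralized matrix. The osteocalcin genes *Bglap3* (chr3:88368616-88372743), *Bglap2* (chr3:88377736-88378699) and *Bglap* (chr3:88383501-88384464) lie on the minus strand. The 250 bases before the start are shown for *Bglap*, an osteoblast gene of the rule, and *Mepe*, an osteocyte gene outside it. Sequences are from RefSeq, GRCm38.p6, at chr3:88384467-88384716 (minus strand) and chr5:104325079-104325328 (plus strand). Capitals mark exact matches to ACCACA or its complement TGTGGT, the core letters recognized by RUNX2, the transcription factor that osteoblasts require. No other motif was searched.
Bglap: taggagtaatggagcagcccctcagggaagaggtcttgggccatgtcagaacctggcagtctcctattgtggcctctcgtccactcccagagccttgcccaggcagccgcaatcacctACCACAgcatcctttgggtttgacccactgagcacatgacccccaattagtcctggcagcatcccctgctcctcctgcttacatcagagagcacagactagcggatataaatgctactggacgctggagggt
Mepe: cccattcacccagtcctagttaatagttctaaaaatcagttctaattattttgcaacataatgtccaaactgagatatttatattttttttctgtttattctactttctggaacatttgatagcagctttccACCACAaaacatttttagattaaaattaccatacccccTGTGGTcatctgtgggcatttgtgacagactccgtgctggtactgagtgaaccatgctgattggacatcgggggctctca
The match begins 132 bases before the start in *Bglap*, and 118 and 80 bases before it in *Mepe*. Of 32851 promoters of this length in the table, 4614 (14.05%) held the letters, and of the 26 promoters matched to the 20 genes named below as highest in the mature cells, 3 (11.5%) did. The promoters of *Ibsp* and *Ifitm5* were also read and held no match, and of the 5 promoters matched to genes of the rule 1 did. The printed 2 were chosen because they held matches. A match is a description and does not show binding.

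Expression was then described against the other stromal cells of the same sample, over the 12 samples with at least 10 cells of each kind. UMIs were summed, and the log2 ratio of CPM + 10 was taken within each sample. The rule used this contrast, so no test was made. Of 9682 genes, 76 (0.785%) were at least 2-fold higher in every sample and 33 (0.341%) at least 2-fold lower, while 529 (5.46%) were higher and 1607 (16.6%) lower by any amount in every sample. The median gene had a log2 ratio of -0.21. The 8 genes of the rule alone held a median of 121283 CPM in the mature cells and 14047 CPM in the others. Their part in that ratio was not tested. With TMM factors, which scale to the bulk of genes, the median was -0.02, with 94 genes higher and 17 lower by 2-fold. With an osteoblast sum of at least 120 the counts were 82 and 97. Without Dmp1KO 3 the count of genes at least 2-fold lower was 54.

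Genes of mineral formation stood among the highest ratios. *Smpd3*, which encodes a neutral sphingomyelinase needed for bone mineralization, had the highest median log2 ratio of the named genes, 4.97 ± 0.94 (SD, n = 12 samples), and 471 CPM in the mature cells, compared with 8.02 CPM in the others. *Ifitm5* had 4.77 ± 0.64, *Panx3*, which encodes a channel protein of bone and cartilage, had 3.86 ± 1.09, and *Slc13a5*, which encodes a citrate transporter, had 3.72 ± 1.13. *Sgms2*, which encodes a sphingomyelin synthase, had 3.25 ± 0.80. Of 14 measured mineralization genes, 3 were 2-fold higher in every sample and 6 were higher by any amount in every sample, with a median of 1.12. Of all genes, 0.785% and 5.46% were. *Alpl* was higher in 12 of 12 samples at 1.05 ± 0.57. *Spp1*, which encodes osteopontin and is also made by macrophages, was higher in 9 of 12 samples at 0.55 ± 0.81. One gene of the list was lower in every sample, beside 16.6% of all genes. It was the phosphate transporter gene *Slc20a1*, at -1.15 ± 0.73.

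Osteocyte genes were higher in part. *Dmp1* had a median log2 ratio of 3.22 ± 2.32 (n = 12). The samples include genotypes with deleted *Dmp1*, described below, and the cause of the wide spread was not tested. In Fgf23cKO 4, with intact *Dmp1*, it was at 573 CPM in the mature cells and 176 CPM in the others. *Phex* had 2.57 ± 0.76 and was higher in every sample, *Pdzd2* 2.98 ± 0.50, and *Mepe* 1.79 ± 1.63. The scale weighs low genes down: with a pseudocount of 1 in place of 10 the median for *Mepe* was 3.98. Of 13 measured osteocyte genes, 5 were higher and 1 lower in every sample, beside 5.46% and 16.6% of all genes. The median of the list was 0.28. The gene that was lower was *Mmp14*, which encodes a membrane-bound protease, at -0.92 ± 0.55. *Galnt3*, which encodes the enzyme that glycosylates FGF23 and so protects it from cleavage, had 2.32 ± 0.50.

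Collagen genes went both ways. The list counts that follow stand beside 5.46% of all genes higher and 16.6% lower in every sample. *Col11a2* (4.29 ± 0.99), *Col13a1* (3.69 ± 0.49), *Col11a1* (3.30 ± 0.53) and *Col22a1* (2.59 ± 0.37) were 2-fold higher in every sample, *Col24a1*, *Col5a1* and *Col5a2* were also higher in 12 of 12, and 4 of the 15 were lower in every sample, among them *Col3a1* (-1.37 ± 1.23) and *Col8a1* (-1.997 ± 1.38). Genes that fold and modify collagen were mostly higher. Of 20 such genes, 12 were higher and 1 lower in every sample, with a median of 0.74, led by the prolyl hydroxylase gene *P4ha1* (2.44 ± 0.56) and *Fkbp11* (2.11 ± 0.58), and including *Serpinh1* (1.63 ± 0.43), which encodes the collagen chaperone HSP47. The exception was the lysyl oxidase-like gene *Loxl2* (-1.22 ± 0.44). Among 19 measured genes of secretion and the unfolded protein response, 10 were higher and none lower in every sample, with *Creb3l1*, a regulator of secretion in osteoblasts, at 2.50 ± 0.46.

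Regulators and receptors were also described. *Mef2c* (2.46 ± 0.63), *Dlx3* (1.43 ± 0.44) and *Sp7* (0.94 ± 0.29), all transcription factors of osteoblasts, were higher in 12 of 12 samples, and *Runx2* (0.65 ± 0.49) in 11. *Pth1r*, which encodes the receptor of parathyroid hormone, had 1.73 ± 0.57, and *Bmp3*, which encodes a BMP antagonist abundant in bone, 2.39 ± 0.52. The FGF receptor genes had no common direction: *Fgfr1* was higher in 9 of 12 samples and *Fgfr2* in 3 of 12. *Dusp6*, a target of ERK signaling, was lower in 12 of 12 at -0.91 ± 0.37. Other genes among the 20 highest were *Slpi* (4.78 ± 2.08), a secreted protease inhibitor, *Slc8a3* (4.06 ± 0.59), a sodium-calcium exchanger, *Gal* (3.68 ± 1.46), the neuropeptide galanin, *Ptprz1* (3.62 ± 0.76), *Pcsk6* (3.48 ± 0.57), *Ptgis* (3.32 ± 0.78), the prostacyclin synthase, *Robo2*, *Mamdc2*, *Car12*, *Kcnma1* and *Vldlr* (3.24 ± 0.49).

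Most contractile and progenitor genes were lower. *Acta2*, which encodes smooth muscle actin, had a median of 145 CPM in the mature cells and 1669 CPM in the others, a log2 ratio of -3.31 ± 1.36. Of all genes, 16.6% were lower, 5.46% higher and 0.341% 2-fold lower in every sample. Of 11 measured contractile genes, 8 were lower and none higher in every sample, and 3 were 2-fold lower in all. Of 18 measured progenitor and fibroblast genes, 11 were lower and none higher in every sample, with a median of -1.44, led by the chemokine *Cxcl12* at -4.48 ± 1.73 and including *Pdgfrb* at -2.19 ± 0.81. *Dcn*, which encodes decorin, differed from its list and was higher in 11 of 12 samples at 2.31 ± 1.57. *Csf1*, the growth factor of macrophages, was lower in every sample at -1.40 ± 0.38. *Tnfsf11*, which encodes RANKL, the signal for osteoclast formation, had 1 UMI in all mature cells and a median of 9.64 CPM in the others over the 12 samples. Also lowest were *Pdzrn4* (-4.51 ± 1.43), *Cxcl14* (-4.24 ± 1.99), *Apod* (-3.97 ± 1.96), *Csmd1*, *Il1rn*, *Actg2*, *Csgalnact1* and *Col4a1* (-3.13 ± 0.67). Macrophage markers had a median ratio of -0.22, near that of all genes, and none of the 12 differed in 1 direction in every sample. Leaving out all cells with a macrophage sum of at least 25 per 10000 gave 69 genes higher and 31 lower by 2-fold.

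**Figure D3:**
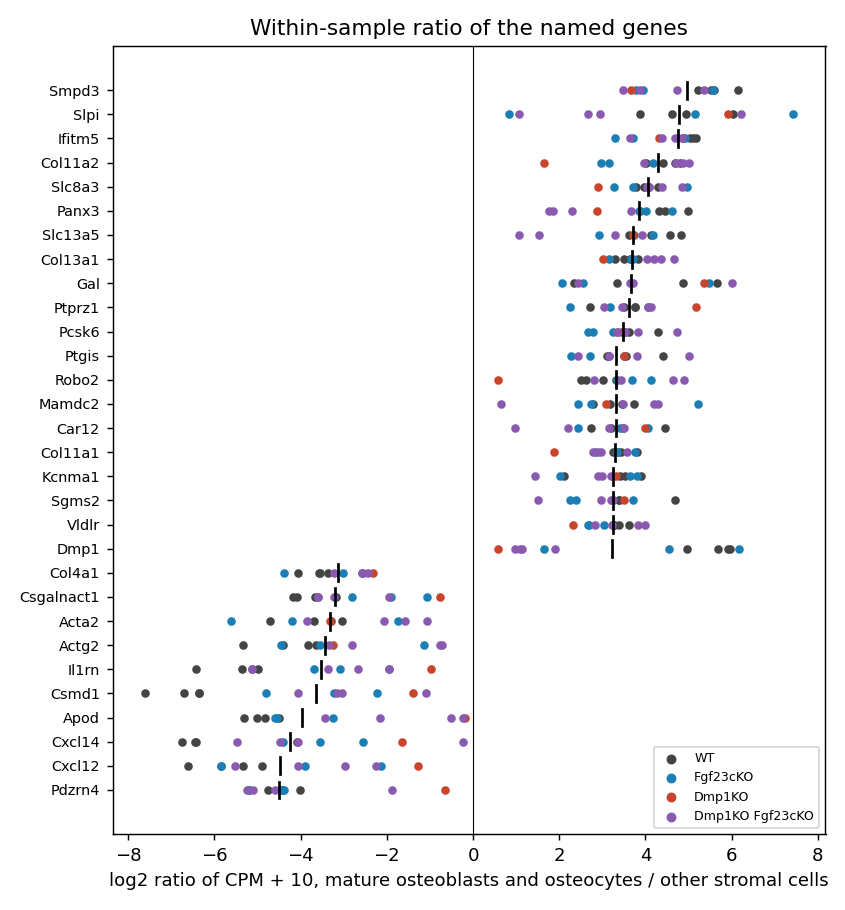
Log2 ratio of CPM + 10 in mature osteoblasts and osteocytes to that in other stromal cells of the same sample (x axis) for the 20 highest and 10 lowest named genes (y axis). Each point is 1 of 12 samples, tagged or untagged, colored by genotype, and each black bar is the median, from 4.97 for Smpd3 to -4.51 for Pdzrn4.

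Within the mature cells, expression also varied with the osteoblast sum. The cells of each of the 12 samples were split into a lower and an upper part of equal size by the sum. The split used rule genes, so the values are a description. In the upper part *Dmp1* was higher in 12 of 12 samples, with a median of 589.5 CPM compared with 95.02 CPM (log2 ratio 1.51 ± 0.94, SD), and so was *Phex*, with 164 compared with 22.9 CPM (1.82 ± 1.38). *Car3*, a carbonic anhydrase, had 2.35 ± 1.20, *Ifitm5* 1.88 ± 1.63, and *Bglap3* 1.61 ± 0.87. *Alpl* was nearly level, at 0.16 ± 0.43. In the lower part *Timp3*, an inhibitor of matrix proteases (-3.84 ± 1.75), *Mgp*, an inhibitor of mineralization (-3.25 ± 1.58), *Col6a3* (-2.34 ± 0.81) and *Csf1* (-1.43 ± 1.21) were more abundant in 12 of 12 samples, and *Acta2* in 10. *Runx2* was also lower in the upper part (-0.79 ± 0.54, 10 of 12). All ratios are upper over lower part.

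The deleted genes were examined in every sample before the genotypes were compared. *Dmp1* was at 637, 937, 1180.0 and 1399 CPM in WT 1 to 4 and 334, 862, 183 and 573 CPM in Fgf23cKO 1 to 4. It was at 0, 4.92 and 8.88 CPM in Dmp1KO 2 to 4 and 27.4, 12.03, 12.2 and 27.2 CPM in Dmp1KO Fgf23cKO 1 to 4. All 7 samples with deleted *Dmp1* lay far below the 8 with intact *Dmp1*. Over all samples of a genotype these were 3360, 3503, 4 and 147 UMIs, or 1067, 509.6, 3.50 (95% Poisson interval 0.954 to 8.96) and 17.0 (14.4 to 19.98) CPM. These intervals cover counting error only and not the spread among samples. Each Dmp1KO Fgf23cKO sample lay outside the interval of its genotype. *Dmp1* was detected in 61.7% of mature cells in WT, 66.3% in Fgf23cKO, 10.7% (3 of 28) in Dmp1KO and 30.1% (31 of 103) in Dmp1KO Fgf23cKO, and in 40.0%, 40.0%, 7.69% and 2% after thinning. In the macrophages of Dmp1KO and Dmp1KO Fgf23cKO there was no *Dmp1* UMI, which allows up to 0.0212 and 0.0406 CPM (3 counts over the genotype). Where the *Dmp1* counts lie relative to the deleted part was not given in the sources used here. For *Fgf23*, whose deleted first exon lies away from the 3′ end, the single UMI in all 373 cells checks nothing.

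Genotypes were compared within the mature cells on summed counts of the tagged cultures with at least 10 of them, which were WT 1 to 3, Fgf23cKO 1 and 2 and Dmp1KO Fgf23cKO 1 to 3, by edgeR's quasi-likelihood test with Benjamini-Hochberg adjustment over 10705 genes and a threshold of 0.1. Fgf23cKO 3, with 6 cells, was left out of this fit. Dmp1KO Fgf23cKO differed from WT in 1572 genes (14.7%), 741 higher (6.92%) and 831 lower (7.76%). Fgf23cKO differed from WT in 191 (1.78%), 83 higher (0.775%) and 108 lower (1.01%), and Dmp1KO Fgf23cKO from Fgf23cKO in 55 (0.514%), 22 higher (0.206%) and 33 lower (0.308%). These counts include 5, 0 and 2 genes of the rule, which are no findings. The first and second share WT, and the cultures of 2 genotypes did not overlap in 30.6%, 29.7% and 27.1% of genes. Single cultures moved these counts. Without WT 3 the first was 673 and the second 65, and without WT 2 they were 975 and 90. Without Dmp1KO Fgf23cKO 3 the first was 951, without Fgf23cKO 1 or 2 the second was 64 or 126, and without WT 1 it was 114. The third was 31 without WT 2, 34 without Dmp1KO Fgf23cKO 1 and 29 without Dmp1KO Fgf23cKO 2.

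The osteoblast sum of the mature cells also moved with genotype in the tagged cultures. Its median per 10000 UMIs was 395, 677 and 507 in WT 1 to 3, 438, 442 and 370 in Fgf23cKO 1 to 3, 247, 271 and 216 in Dmp1KO Fgf23cKO 1 to 3, and 140 and 155 in Dmp1KO 2 and 3. Dmp1KO Fgf23cKO lay below WT and Fgf23cKO without overlap among these cultures, and Dmp1KO lay lowest. The untagged samples went another way, at 323 in WT 4, 293 in Fgf23cKO 4, 336 in Dmp1KO 4 and 771 in Dmp1KO Fgf23cKO 4, the highest of the 15 samples, and with them the genotypes overlapped. Of the 40 listed genes that rose in Dmp1KO Fgf23cKO compared with WT, 35 had lower medians in the upper than in the lower part of the mature cells. Another 3 had higher ones. Of the 20 that fell, 13 had higher medians there and 4 lower ones. Many listed genes that were not called also had lower medians there. Their share was not counted, so these counts cannot be set against it. With the osteoblast sum of at least 120, 27 of the 40 and 13 of the 20 kept their calls, and 2 of the 40 could not be fitted. Medians then still differed, at 496, 677 and 622 in WT 1 to 3 and 298, 306 and 272 in Dmp1KO Fgf23cKO 1 to 3. The part of the osteoblast sum in the genotype differences was not tested beyond that fit, which was not made for the Dmp1KO comparisons or the interaction.

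Mineralization genes moved both ways in Dmp1KO Fgf23cKO compared with WT. Of 15 measured, 3 rose and 5 fell beside 14.7% of all genes called, with a median log2 change of -0.66, compared with 0.01 over all genes. *Smpd3* was at 1338, 1188, 1372 and 1507 CPM in WT 1 to 4 and 433, 508, 221 and 299 CPM in Dmp1KO Fgf23cKO 1 to 4. The Fgf23cKO samples were also low, at 169, 537, 274 and 189 CPM, and Dmp1KO 2 to 4 the lowest, at 47.6, 157 and 88.8 CPM. WT did not overlap with any other genotype. In the fit *Smpd3* fell by 1.93 ± 0.39 (log2, SE; adjusted p = 0.0155) in Dmp1KO Fgf23cKO. *Bglap3* was at 139, 507, 269 and 237 CPM in WT, 29.7, 30.1, 24.5 and 9.15 CPM in Fgf23cKO, 19.1, 63.9 and 17.8 CPM in Dmp1KO, and 45.2, 39.2, 22.4 and 78.4 CPM in Dmp1KO Fgf23cKO. It fell by 3.28 ± 0.45 (adjusted p = 0.00232), with the caution on copies given above. *Phospho1*, which encodes a phosphatase of matrix vesicles, fell by 1.76 ± 0.40 (adjusted p = 0.025). These 3 calls held with each culture left out. *Ank*, *Slc20a2* and *Omd* rose, and *Panx3* and *Cthrc1* fell, by calls that were all lost without WT 2 or without WT 3.

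Other genes of mineral formation did not pass the test. *Alpl* was at 813, 792, 817 and 744 CPM in WT, 768, 838, 716 and 782 CPM in Fgf23cKO, 812, 634 and 657 CPM in Dmp1KO, and 988, 1085, 1106 and 638 CPM in Dmp1KO Fgf23cKO. The tagged Dmp1KO Fgf23cKO cultures were above all others, but the log2 difference from WT was 0.20 ± 0.12 (adjusted p = 0.339). *Phex* was at 62.8, 167, 109 and 92.3 CPM in WT, 110, 73.0, 118 and 36.6 CPM in Fgf23cKO, 2.38, 60.7 and 17.8 CPM in Dmp1KO, and 137, 206, 148 and 271 CPM in Dmp1KO Fgf23cKO. WT and Dmp1KO Fgf23cKO overlapped (0.37 ± 0.33, adjusted p = 0.545), and the Dmp1KO samples lay below every WT sample. *Mepe* varied widely among cultures, at 7.30, 2.26, 28.3 and 54.0 CPM in WT, 72.4, 448, 210 and 5.82 CPM in Fgf23cKO, 0, 1.64 and 17.8 CPM in Dmp1KO, and 81.2, 10.5, 124 and 26.1 CPM in Dmp1KO Fgf23cKO. Its differences did not pass the test (Dmp1KO Fgf23cKO compared with WT 1.86 ± 1.03, adjusted p = 0.298). Of 13 measured osteocyte genes, 3 rose and 2 fell in that comparison, beside 14.7% of all genes called. *Fam20c*, which encodes the kinase of secreted phosphoproteins, *Kcnk2* and *Mmp14* rose, all by calls lost without WT 2, and *Hyou1* and *Dmp1* fell. *Dmp1*, the deleted gene, fell by 5.99 ± 0.48 (adjusted p = 0.000487).

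**Figure D4:**
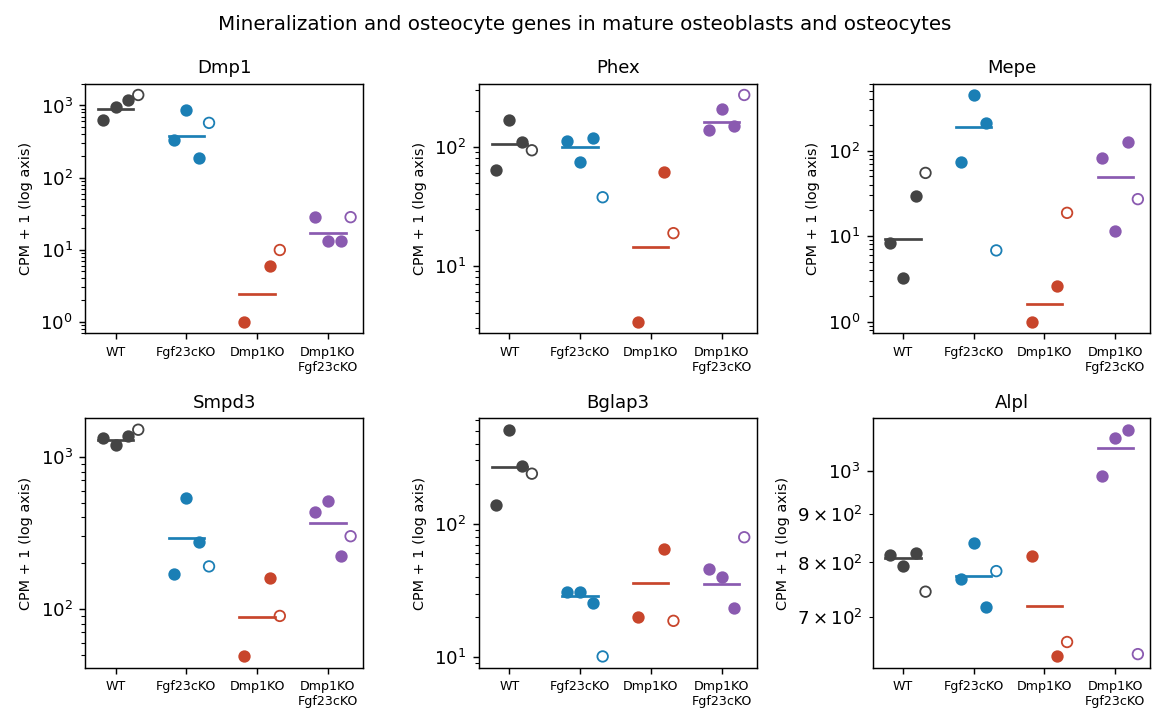
CPM + 1 on a log axis (y) in mature osteoblasts and osteocytes by genotype for Dmp1, Phex, Mepe, Smpd3, Bglap3 and Alpl, with tagged cultures as filled points, untagged samples as open points and the geometric mean of the tagged cultures as bars. Dmp1 lies below 30 CPM in all 7 samples with deleted Dmp1, Smpd3 is at 1188 to 1507 CPM in WT and lower in every other sample, and Alpl stays between 634 and 1106 CPM.

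Of 11 measured contractile genes, 7 rose and none fell in Dmp1KO Fgf23cKO compared with WT, beside 6.92% of all genes called higher, with a median log2 change of 1.62. *Acta2* was at 58.4, 145, 69.1 and 143 CPM in WT, 21.2, 109, 339 and 457 CPM in Fgf23cKO, 102, 203 and 1217 CPM in Dmp1KO, and 444, 345, 1036 and 145 CPM in Dmp1KO Fgf23cKO. The tagged cultures of WT and Dmp1KO Fgf23cKO did not overlap, and the untagged samples did. *Acta2* rose by 2.59 ± 0.60 (adjusted p = 0.0258), *Actg2* by 5.33 ± 0.79 (adjusted p = 0.00381) and *Myl9* by 3.13 ± 0.62 (adjusted p = 0.0142). *Cnn1*, which encodes calponin, was at 0 in all 4 WT samples and at 9.68, 8.19, 21.4 and 2.18 CPM in Dmp1KO Fgf23cKO. Without WT 3 the calls of *Acta2* (2.41) and *Cnn1* were lost, and those of *Actg2* and *Myl9* were kept. With the osteoblast sum of at least 120, 2 of the 7 calls were kept, *Actg2* (3.29) and *Cald1*, 4 were lost, among them *Acta2* (1.08) and *Myl9* (1.45), and *Cnn1* could not be fitted. *Tagln*, a contractile gene, is part of the rule. Cells with at least 10 *Tagln* UMIs per 10000 were 3 of 25, 4 of 36, 4 of 22 and 1 of 20 in Dmp1KO Fgf23cKO, 1 of 30, 0 of 17, 1 of 49 and 5 of 66 in WT, 0 of 23, 0 of 11, 1 of 6 and 4 of 40 in Fgf23cKO, and none of 28 in Dmp1KO. Their part in the contractile result was not tested.

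Of 15 measured collagen genes, 6 rose and none fell in the same comparison, with a median of 0.56, and 9 did not pass. Of all genes, 6.92% were called higher and 7.76% lower. *Col6a3* was at 42.3, 31.7, 24.9 and 34.8 CPM in WT, 89.9, 114, 138 and 78.6 CPM in Fgf23cKO, 126, 91.8 and 124 CPM in Dmp1KO, and 262, 186, 341 and 76.2 CPM in Dmp1KO Fgf23cKO, so that each WT sample lay below each sample of the other genotypes. It rose by 2.85 ± 0.26 (adjusted p = 0.000598), *Col6a1* by 1.43 ± 0.29 (adjusted p = 0.0147), *Col6a2* by 1.498 ± 0.27 (adjusted p = 0.00984) and *Col8a1* by 3.75 ± 0.64 (adjusted p = 0.00702), all with each culture left out. *Col3a1* rose by 1.28 ± 0.28 (adjusted p = 0.022), a call lost without WT 3 (1.11). All 6 calls were kept with the osteoblast sum of at least 120. *Col11a2*, which marks the mature cells, was at 340, 344, 300.0 and 291 CPM in WT and 371, 402, 175 and 455 CPM in Dmp1KO Fgf23cKO, and the groups overlapped.

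Among 18 measured progenitor and fibroblast genes, 6 rose and 1 fell, beside 6.92% of all genes called higher and 7.76% called lower. *Mgp*, which encodes matrix Gla protein, was at 61.3, 31.7, 42.9 and 251 CPM in WT, 331, 238, 165 and 158 CPM in Fgf23cKO, 2248, 86.9 and 311 CPM in Dmp1KO, and 592, 249, 349 and 38.1 CPM in Dmp1KO Fgf23cKO. The 3 tagged WT cultures were lower than every other tagged culture. *Mgp* rose by 2.92 ± 0.33 (adjusted p = 0.00108), and *Igfbp4* by 2.02 ± 0.40 (adjusted p = 0.0142). The WNT antagonist genes *Sfrp1* (3.12 ± 0.77, adjusted p = 0.033) and *Sfrp4* (1.80 ± 0.39, adjusted p = 0.0207) rose, but not without WT 3 (2.73 and 1.5). With the osteoblast sum of at least 120 the calls of *Igfbp4* (0.86) and *Sfrp1* (1.12) were lost, and that of *Mgp* (3.54) was kept. *Lrp4*, which encodes an anchor for sclerostin, rose by 1.31 ± 0.23 (adjusted p = 0.0081).

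*Csf1* was at 51.1, 58.8, 43.5 and 61.0 CPM in WT and higher in every other sample, at 206, 143, 350 and 205 CPM in Fgf23cKO, 164, 128 and 142 CPM in Dmp1KO and 173, 175, 174 and 136 CPM in Dmp1KO Fgf23cKO. It rose by 1.61 ± 0.19 in Dmp1KO Fgf23cKO (adjusted p = 0.0013) and by 1.71 ± 0.21 in Fgf23cKO (adjusted p = 0.00453), calls kept with each culture left out. Receptors of hormones rose in 4 of 14 cases and fell in none, beside 6.92% of all genes called higher and 7.76% called lower. *Vdr*, the vitamin D receptor, rose by 1.60 ± 0.35 (adjusted p = 0.0216) and *Ghr*, the growth hormone receptor, by 1.06 ± 0.21 (adjusted p = 0.0141), both with each culture left out. *Pth1r* (0.59 ± 0.17, adjusted p = 0.0535) and *Fgfr2* (0.80 ± 0.27, adjusted p = 0.0935) passed in the full fit and not without WT 2, WT 3 or some Dmp1KO Fgf23cKO cultures. *Dusp6* fell by 1.11 ± 0.31 (adjusted p = 0.0486) and the ERK antagonist *Spry1* rose by 1.88 ± 0.36 (adjusted p = 0.0125), and of 13 measured FGF and ERK genes 2 rose, 1 fell and 10 did not pass, beside 14.7% of all genes called. The call of *Dusp6* was lost with the osteoblast sum of at least 120 (-0.88). Among 20 secretory genes 1 rose and 4 fell, beside the same 6.92% and 7.76% of all genes. *Pdia4* was down by 0.94 ± 0.17 (adjusted p = 0.0101) and *Pdia6* up by 1.08 ± 0.19 (adjusted p = 0.00756). No macrophage marker of 12 and no proliferation gene of 12 passed, beside 14.7% of all genes. The largest changes with no overlap among cultures included *Itgb6*, down by 6.10 ± 0.69 (adjusted p = 0.00103), and *Rspo2*, an R-spondin that boosts WNT signaling, which had 2 UMIs in the 3 WT sums and 191, 25.9 and 163 CPM in Dmp1KO Fgf23cKO (adjusted p = 0.00616). The same test in the other stromal cells of these cultures called 2442 genes (21.5%).

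**Figure D5:**
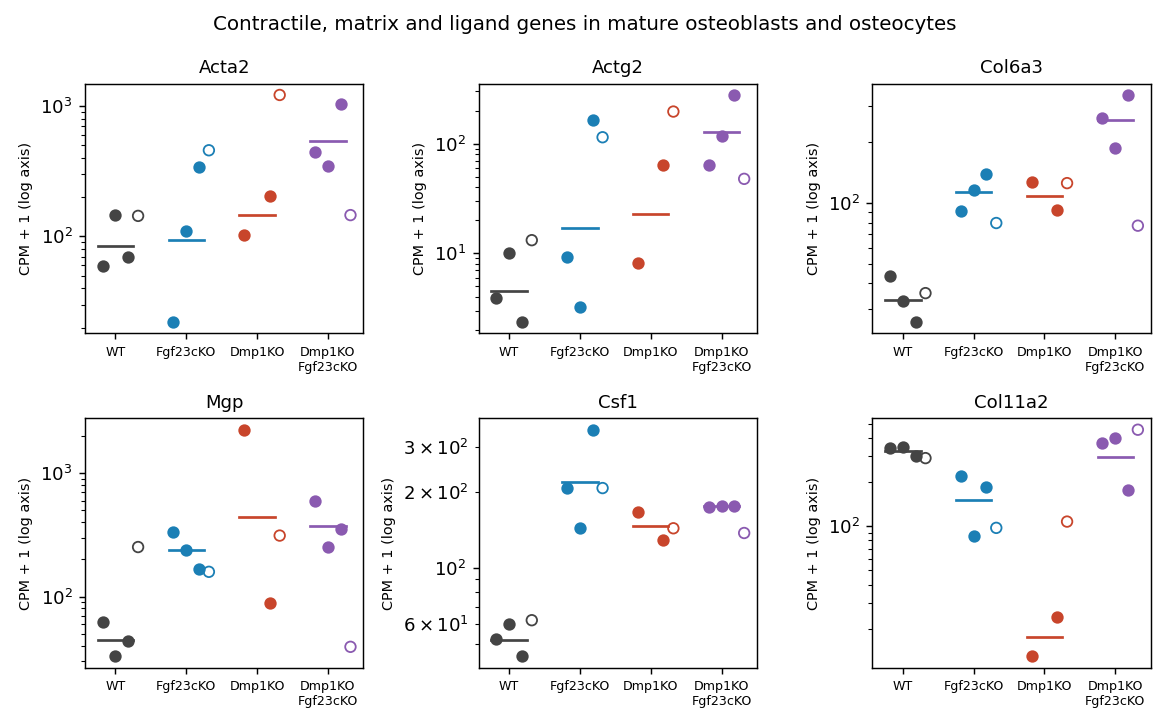
CPM + 1 on a log axis (y) in mature osteoblasts and osteocytes by genotype for Acta2, Actg2, Col6a3, Mgp, Csf1 and Col11a2, with tagged cultures filled, untagged samples open and bars at the geometric mean of the tagged cultures. Csf1 and Col6a3 are lower in every WT sample than in every sample of the other genotypes, whereas Acta2 overlaps once the untagged samples are counted.

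With *Fgf23* deleted alone, few listed genes passed. Compared with WT, *Mgp* rose by 2.53 ± 0.35 (adjusted p = 0.00949) and *Fabp4*, a fatty acid binding protein of fat cells and macrophages, by 3.23 ± 0.37 (adjusted p = 0.00346), and both calls held with each culture left out. Leaving out either Fgf23cKO culture left 1, and the spread then came from the other genotypes. *Fabp4* was at 8.76, 4.53, 11.8 and 5.23 CPM in WT and 91.8, 100.1, 2.23 and 24.1 CPM in Fgf23cKO. The third Fgf23cKO culture, which was not in the fit, lay below all WT samples. *Bglap3* fell by 3.47 ± 0.54 (adjusted p = 0.0169, lost without Fgf23cKO 1 at -3.45), and *Smpd3* by 2.01 ± 0.46 (adjusted p = 0.0795, lost without any 1 of 5 cultures, -1.39 without Fgf23cKO 1). *Fam20a*, a secretory pathway pseudokinase, rose by 3.01 ± 0.44 (adjusted p = 0.0111). With the osteoblast sum of at least 120 the calls of *Mgp* (1.41) and *Fam20a* were lost, and those of *Fabp4* (3.67), *Bglap3* and *Smpd3* were kept. *Csmd1* had 1 UMI in the 3 WT sums and 152 and 67.0 CPM in Fgf23cKO 1 and 2 (adjusted p = 0.000999). Outside the fit it was at 123 CPM in Fgf23cKO 3, 5.41 CPM in the untagged Fgf23cKO 4 and 0 in WT 4. By list, beside 1.78% of all genes called, 1 of 15 mineralization genes rose and 2 fell. Of 15 collagen genes 1 rose (*Col6a3*, a call lost with the osteoblast sum of at least 120, at 1.64). No osteocyte gene of 13, no contractile gene of 11 and no hormone receptor of 14 passed. Only 2 Fgf23cKO cultures entered, and 1590 genes had an unadjusted p under 0.05.

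Both genotypes with deleted *Fgf23* were then compared, which differ by the *Dmp1* alleles. Dmp1KO Fgf23cKO had lower *Dmp1* (-5.23 ± 0.48, adjusted p = 0.00203), *Fabp4* (-4.55 ± 0.34, adjusted p = 0.000577), *Itgb6* (-5.08 ± 0.74, adjusted p = 0.0228) and *Kcnq5* (-5.04 ± 0.57, adjusted p = 0.00515). *Adamts9*, a protease gene, was higher by 2.24 ± 0.28 (adjusted p = 0.00974). These calls held with each culture left out, where 1 of the 2 Fgf23cKO cultures left out again left the spread to the other genotypes. The third Fgf23cKO culture, outside the fit, had *Fabp4* at 2.23 CPM, within the 2.05 to 6.12 CPM of the Dmp1KO Fgf23cKO cultures. *Actg2* was higher by 4.56 ± 0.71 (adjusted p = 0.0309), a call lost without Fgf23cKO 2 (4.11). With the osteoblast sum of at least 120 it was kept (4.55). Of 15 collagen genes 2 rose, *Col6a3*, whose call was lost with that sum (1.57), and *Col16a1*, whose call was kept (2.51). Of 11 contractile genes 1 rose, while no gene of 15 for mineralization, 20 for collagen processing or 14 for hormone receptors passed. Of all genes, 0.514% were called.

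Dmp1KO could be compared over fewer cells. The fit was repeated with all tagged cultures of at least 3 mature cells, which brought in Dmp1KO 2 and 3, with 7 and 12 cells, and Fgf23cKO 3. Dmp1KO differed from WT in 1542 of 10593 genes (14.6%), 751 higher (7.09%) and 791 lower (7.47%). These 1542 include 4 genes of the rule, which are no findings. Without Dmp1KO 2 the count was 283, without WT 3 it was 722, without Dmp1KO 3 it was 824 and without WT 2 it was 961. *Smpd3* fell by 3.82 ± 0.59 (adjusted p = 0.00456), *Panx3* by 1.85 ± 0.29 (adjusted p = 0.00485), *Col11a2* by 4.38 ± 0.57 (adjusted p = 0.00211), *Fkbp10* by 1.00 ± 0.19 (adjusted p = 0.0114) and *Pdia4* by 1.12 ± 0.22 (adjusted p = 0.0121), and *Col3a1* rose by 2.32 ± 0.32 (adjusted p = 0.00351) and *Pappa* by 1.80 ± 0.37 (adjusted p = 0.0137). These calls held with each culture left out, as did 9 in all of the 63 listed genes called outside the rule. Without Dmp1KO 2 or 3 that arm was 1 culture, assumed to vary like those of the other genotypes. *Col11a2* was at 11.9, 23.0 and 107 CPM in Dmp1KO 2 to 4, below the 291 CPM of the lowest WT sample. By list, 6 of 15 mineralization genes fell and 1 rose, and 4 of 13 osteocyte genes fell and 1 rose. The osteocyte list includes *Dmp1*, the deleted gene. Of 20 collagen-processing genes 8 fell and none rose, and of 20 secretory genes 6 fell and none rose. Collagen genes went both ways, with 6 of 15 higher and 5 lower. *Mgp* rose by 4.40 ± 0.88 (adjusted p = 0.0122), *Dlx3* fell by 2.51 ± 0.52 (adjusted p = 0.0154) and *Phex* fell by 1.89 ± 0.66 (adjusted p = 0.0973), and all 3 calls were lost without Dmp1KO 2. Of 12 macrophage markers, 3 were lower, *Lyz2* (-1.25 ± 0.40, adjusted p = 0.0757), *C1qc* and *Csf1r*.

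Dmp1KO Fgf23cKO differed from Dmp1KO in 345 genes (3.26%), 187 higher (1.77%) and 158 lower (1.49%), but in 8 without Dmp1KO 2, 34 without Dmp1KO Fgf23cKO 2, 105 without Dmp1KO 3 and 112 without Dmp1KO Fgf23cKO 1. In the full fit *Col11a2* was higher by 4.14 ± 0.56 (adjusted p = 0.0175), *Vdr* by 3.51 ± 0.71 (adjusted p = 0.046), *Bmp4* by 2.22 ± 0.48 (adjusted p = 0.0533), *Col13a1* by 1.998 ± 0.40 (adjusted p = 0.046), *Panx3* by 1.17 ± 0.29 (adjusted p = 0.0739), the prolyl hydroxylase gene *P3h1* by 1.16 ± 0.24 (adjusted p = 0.0497) and *Alpl* by 0.59 ± 0.14 (adjusted p = 0.0727). *Phex* did not pass (2.25 ± 0.64, adjusted p = 0.105). The BMP antagonist *Grem1* was lower by 3.80 ± 0.80 (adjusted p = 0.0522). The 345 genes include 3 genes of the rule, which are no findings. Of the 19 listed genes called outside the rule, none kept its call in every fit with 1 culture left out. All 19 lost it without Dmp1KO 2, which left 1 Dmp1KO culture, and all kept their direction. *Col11a2* was then higher by 3.78, *P3h1* by 1.26 and *Alpl* by 0.73, and *Grem1* was lower, at -3.77.

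It was last asked whether genotype acted differently in the mature cells and in the other stromal cells of the same cultures, by the interaction of genotype and cell class with the culture as a block. Of 11950 genes, 198 (1.66%) passed for Dmp1KO Fgf23cKO compared with WT, 36 (0.301%) for Fgf23cKO compared with WT, and 24 (0.201%) for Dmp1KO Fgf23cKO compared with Fgf23cKO. These include 6, 0 and 1 genes of the rule. The first was 53 without WT 3, 70 without WT 1, 72 without WT 2 and 81 without Dmp1KO Fgf23cKO 1. The second was 10 to 14 without any 1 WT culture or without Fgf23cKO 1, and 57 and 55 without Dmp1KO Fgf23cKO 1 and 3. The third was 9 without WT 3, 13 without WT 2 and 42 without Dmp1KO Fgf23cKO 3. *Sfrp4* rose in the mature cells, from 30.7, 20.4 and 15.2 CPM in WT 1 to 3 to 123, 50.7 and 80.5 CPM in Dmp1KO Fgf23cKO 1 to 3. In the other stromal cells it went from 412, 434 and 272 CPM to 136, 98.2 and 94.3 CPM. The ranges were apart in both classes and in opposite directions, and the difference between the effects was 3.38 ± 0.32 (log2, SE; adjusted p = 0.00167). *Mgp* (3.03 ± 0.37, adjusted p = 0.00495) and *Col6a3* (2.50 ± 0.27, adjusted p = 0.00316) also rose more in the mature cells. In the other stromal cells *Mgp* was at 1071, 626 and 1867 CPM in WT 1 to 3 and 1185, 1077 and 842 CPM in Dmp1KO Fgf23cKO 1 to 3, and the groups overlapped. These 3 calls held with each culture left out. *Ccnd1*, which encodes cyclin D1, had a lower effect in the mature cells for Dmp1KO Fgf23cKO (-1.75 ± 0.21, adjusted p = 0.00495) and for Fgf23cKO (-1.87 ± 0.24, adjusted p = 0.018), both kept with each culture left out.

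*Panx3* gave the opposite pattern. It was at 292, 292 and 336 CPM in the mature cells of WT 1 to 3 and 177, 276 and 203 CPM in those of Dmp1KO Fgf23cKO 1 to 3. In other stromal cells it was at 5.13, 3.72 and 0.935 CPM in WT and 41.9, 12.5 and 33.5 CPM in Dmp1KO Fgf23cKO. The difference between the effects was -3.96 ± 0.79 (adjusted p = 0.0517), a call lost without any WT culture or without Dmp1KO Fgf23cKO 1. For *Alpl*, Dmp1KO Fgf23cKO compared with Fgf23cKO gave -1.22 ± 0.19 (adjusted p = 0.0554), with other stromal cells at 524, 700 and 514 CPM compared with 200 and 190 CPM, and for *Pth1r* -1.28 ± 0.23 (adjusted p = 0.082). Both calls were lost without WT 3, among others.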

How the data were processed

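Single-cell RNA-Seq libraries of BMSC cultures were made with a Chromium 3′ kit, with CellPlex tags for 3 cultures per genotype. The authors aligned reads to mm10 with Cell Ranger 7.0.1, assigned tags, removed multiplets, and deposited whole-number UMI counts per gene and cell for each sample. Sample 4 of each genotype was read as the untagged cells, and 1 of 16 samples had no matrix used here. Libraries ranged from 3560752 to 72482185 UMIs, and the precision of a value follows from the number of mature cells, 6 to 66 per sample.

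Cells were chosen by the stated sums, and no doublet caller was run. The members, gene lists and tests were chosen with earlier results of these data known. Counts were summed per sample and cell class. Genotypes were compared on these sums with edgeR 4.0.16 (R 4.3.3, TMM factors, quasi-likelihood test, Benjamini-Hochberg adjusted p under 0.1), with DESeq2 1.42.0 as an alternative. Cell shares of the tagged cultures were compared by exact permutation tests (scipy 1.17.1). The study describes 3 mice and 3 cultures per genotype. The fit with sums of at least 3 cells was a second setting, and the further settings tried for its Dmp1KO comparisons were added after seeing the data. Named genes were those of the gene lists, the 20 highest and 10 lowest by median ratio among genes outside the rule with at least 50 CPM and the same direction in every sample, the 10 largest changes each way per genotype comparison among called genes whose cultures did not overlap, and the 5 largest each way per interaction. A few of these genes are not reported here. Counts were also simulated around the mean levels of the mature cells, with the same assumed spread for every gene and not the spread of the data. For Dmp1KO Fgf23cKO compared with WT, 82.5% of 4-fold and 3.8% of 2-fold changes were then recovered within the mature cells. For the interaction 32.9% and 0% were. Alternatives were other normalizations, filters, cell thresholds, untagged samples, a replicate block and each culture left out.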

Additional observations from a re-analysis of the deposited data

Results flagged for a closer look

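In 48 groups of 4 values tested for a sample far from the others, 3 held one, where chance gives about 1 in 20 groups. The share of mature osteoblasts and osteocytes was 13.75% of cells in WT 4, far above the 3 tagged WT cultures. Their share of stromal cells was 15.0% in Dmp1KO Fgf23cKO 4, far below the tagged cultures of that genotype. *Mgp* was at 251 CPM in the mature cells of WT 4. Both samples, WT 4 and Dmp1KO Fgf23cKO 4, were the untagged cells of their pool.

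The effect of genotype differed between the mature cells and the other stromal cells, by the interaction test, in 198 genes for Dmp1KO Fgf23cKO compared with WT, 36 genes for Fgf23cKO compared with WT and 24 genes for Dmp1KO Fgf23cKO compared with Fgf23cKO. Genes of the rule, 6, 0 and 1 of these, are not listed. Values below are the log2 effect in the mature cells minus that in the others. Several rest on groups with few or no counts, and such fitted values are no bounds. With each culture left out in turn, 5 of 28 called genes followed outside the rule kept their call in every fit for Dmp1KO Fgf23cKO compared with WT, 4 of 17 for Fgf23cKO compared with WT and 1 of 12 for Dmp1KO Fgf23cKO compared with Fgf23cKO.

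For Dmp1KO Fgf23cKO compared with WT, the effect was lower in the mature cells for *Lhfpl3* (-7.35), *Brinp3* (-6.97), *Fstl4* (-6.92), *Gm26885* (-5.64), *Vit* (-4.90), *Panx3* (-3.96), *Dmp1* (-3.85) and *Ackr3* (-3.48). It was higher for *Acta2* (2.19), *Actg2* (4.89), *Adgrl3* (6.16), *Aoc3* (6.27), *Csmd1* (6.73), *C430002N11Rik* (7.13) and *Rspo2* (7.14). For Fgf23cKO compared with WT it was lower for *Aldh1a3* (-4.41), *Trim16* (-2.64), *Scd1* (-2.31), *Klf4* (-2.30) and *Timp1* (-2.10), and higher for *Fam20c* (2.29), *Tmem86a* (3.45), *H2-Q4* (4.07), *Epas1* (4.15), *Pi15* (5.22) and *Csmd1* (8.32). For Dmp1KO Fgf23cKO compared with Fgf23cKO it was lower for *Lhfpl3* (-11.32), *Lum* (-10.42), *3830403N18Rik* (-9.20), *Slc25a48* (-5.50), *Rbfox1* (-5.31), *Pth1r* (-1.28) and *Alpl* (-1.22), and higher for *Scd1* (2.28), *Adamts9* (2.47), *Kitl* (2.83) and *Acta2* (3.52).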

How the results depend on the processing

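Few cells stood behind each sum, so absence from the calls says little. In simulated counts, whose spread was assumed, 2-fold changes were rarely recovered. The data may vary otherwise, since some smaller changes were called, such as *Cald1* (0.65) and *Pth1r* (0.59) in Dmp1KO Fgf23cKO compared with WT. No listed or named gene called in a genotype test changed direction under the alternatives run, and genes that did not pass were not followed. Many calls were lost under at least 1 alternative. Within the mature cells these were 49 of 76 genes followed for Dmp1KO Fgf23cKO compared with WT, 28 of 30 for Fgf23cKO compared with WT, 15 of 20 for Dmp1KO Fgf23cKO compared with Fgf23cKO, 54 of 63 for Dmp1KO compared with WT and 19 of 19 for Dmp1KO Fgf23cKO compared with Dmp1KO. In the interaction they were 23 of 28, 13 of 17 and 11 of 12 for the first 3 of these comparisons. Against other stromal cells, 61 genes moved by more than their SD, in 70 instances, none with a change of direction. Directions of cell shares did change. For the share of cells, Fgf23cKO minus WT was -1.79 points with untagged samples counted as replicates and -0.242 to 1.89 with 1 culture left out, and Dmp1KO Fgf23cKO minus WT was -0.218 with untagged samples. For the share of stromal cells, Fgf23cKO minus WT was -13.6 to 4.71 with 1 culture left out. Dmp1KO Fgf23cKO minus WT was -7.73 with untagged samples, -1.27 with an osteoblast sum of at least 120, -6.47 with no filter on cells and -0.989 to 3.06 with 1 culture left out, and Dmp1KO Fgf23cKO minus Fgf23cKO was -3.24 to 15.1.

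Counts of called genes moved more. For Fgf23cKO compared with WT the count was 91 at an adjusted p under 0.05 (49 higher, 42 lower), 936 with no filter on low counts, 645 with untagged samples, 400 with sums of at least 3 cells, 115 with an osteoblast sum of at least 120, 366 with DESeq2, and 64 (47 higher, 17 lower) to 231 with 1 culture left out. For Dmp1KO Fgf23cKO compared with WT it was 921 at 0.05 and 673 to 1601 with 1 culture left out. For Dmp1KO Fgf23cKO compared with Fgf23cKO it was 26 at 0.05, 647 with no filter, 101 with untagged samples, 30 with sums of at least 3 cells, 117 with DESeq2 and 29 to 68 with 1 culture left out. With no filter the interaction gave 495, 807 and 372 genes for the 3 comparisons in that order, and 10 to 57, 53 to 247 and 9 to 42 with 1 culture left out. Dmp1KO compared with WT gave 283 to 1445 with 1 culture left out, and Dmp1KO Fgf23cKO compared with Dmp1KO gave 979 with no filter, 834 with untagged samples and 8 to 356 with 1 culture left out. Of those 979 genes with no filter, 663 were higher and 316 lower, compared with 187 higher and 158 lower in the main fit. In the description, genes 2-fold higher were 116 with a pseudocount of 1 and 76 to 88 with 1 sample left out. Genes 2-fold lower were 17 with TMM factors, 76 with a pseudocount of 1, 54 in tagged cultures alone, 97 with an osteoblast sum of at least 120, 13 with every cell weighted equally (chosen after seeing the data), and 33 to 54 with 1 sample left out. The causes were not tested.

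With the replicate number as a block, the 3 genotype counts within the mature cells were 265, 1543 and 50, and those of the Dmp1KO comparisons 1344 and 276. Correlations of same-numbered cultures, on deviations from the genotype mean, ranged from -0.0624 to 0.155 and did not all exceed 0.1. With so few cultures the deviations within a genotype are tied to each other, so this check cannot decide on pairing. The numbers were not taken as pairs in the main fits.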
